A study of Rattus norvegicus with 9 samples.

Results

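Neuropeptides are short signalling molecules that neurons cut from larger secreted precursor proteins, store in dense core granules and release beside a fast transmitter such as GABA, glutamate or dopamine. Each precursor gene is switched on in particular neuron types, so these genes are used to tell types apart, and several are induced by activity through cAMP. The set described here holds the precursor genes Sst, Tac1, Npy, Nts, Gal, Cck, Penk, Vip, Cartpt and Adcyap1. It was named as a list of 10 genes, and a member was measured where the array annotation gave a probe set that symbol alone. That held for 9 of the 10, among 10411 genes in all, and each of the 9 had 1 such probe set. Nts, the neurotensin precursor, was not analysed here.

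The study compared primary cultures of rat ventral midbrain with the tissue they came from. Litters of 4 dams, taken at embryonic day 11, were combined and divided into 3 groups. Ventral midbrains of each group were dissociated and grown for 9 days in vitro (MesPC, 6 arrays) or kept together as tissue (MesE11, 3 arrays). The labels name no strain, genotype or treatment, and they do not say which culture came from which embryo group. They describe duplicate cultures of 3 groups but 3 independent culture arrays, so some of the 6 MesPC arrays may share a culture, and a p-value here speaks only of the array-to-array spread. Values are log2 intensities, and differences are MesPC minus MesE11 with their standard error (6 and 3 arrays) unless stated otherwise. A gene is said to have fallen or risen where limma's adjusted p, taken over all 15866 probe sets tested, was below 0.05.

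The cultures gave lower signals for most of the 9 members. Of the 9 members, 8 fell and 0 rose, where 22.7% of all genes fell, and the median difference was -0.73 against -0.06 over all genes. In a fit with a random block for each set of arrays (tissue, culture 1 to 3, culture 4 to 6), 6 of the 9 fell. Penk (limma adjusted p = 0.102) and Vip (0.115) then lost their calls. That fit allows only in part for arrays of a set being alike. It takes the same correlation for all genes, and tissue is a single set. Sst, which encodes somatostatin, was 8.66-fold lower in culture, Tac1, the substance P precursor, 3.98-fold and Npy 3.27-fold. These 3 were the members that fell 2-fold or more, as 2.13% of all genes did. Gal, the galanin precursor, was the member that did not pass, and Vip lay near background in both groups. In bulk RNA, fewer cells of a type and less message per cell cannot be told apart.

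Markers of other cell types moved between the groups as well. Of 9 general neuronal genes 5 fell and 0 rose, and their mean level was 10.64 to 11.87 in culture arrays and 12.34 to 12.46 in tissue arrays. Of the dopaminergic markers, which define the ventral midbrain, Th was well above background in tissue, where it averaged 11.53. Pitx3, at 7.03 in tissue, lay only 0.35 above the highest bacterial control, and its culture mean of 6.60 lay below that control. Of these markers 6 of 6 fell in culture, as did 3 of 5 genes of GABA and glutamate neurons. The list of fibroblast and smooth muscle markers had 7 of its 8 genes higher, with mean levels of 10.73 to 11.14 in culture and 7.70 to 8.01 in tissue, and 4 of 6 astrocyte genes rose. Of the dimmer probe sets of these astrocyte genes, Aqp4 (-0.42 ± 0.14), Gja1 (-0.31 ± 0.08) and Slc1a3 (-0.74 ± 0.08) each had a lower one. Another for Slc1a3 rose by 1.04 ± 0.23, and others for Aqp4 (0.05 ± 0.06) and Gja1 (0.36 ± 0.14) did not pass. Markers of blood and vessels fell too, with 5 of 5 for red cells, 3 of 4 for endothelial cells and 4 of 6 for microglia. Among markers of neighbouring tissues, 4 of 8 for pituitary and hypothalamus and 2 of 3 for neural crest and sensory ganglia fell. The pituitary and hypothalamus falls ran only from -0.40 (Oxt) to -0.22 (Fshb), and Prl among them lay in the background range in both groups. Those of neural crest and ganglia were -1.58 (Prph) and -0.35 (Isl1). These counts stand beside 22.7% of all genes lower and 21.9% higher. With the random block, 9.11% of all genes were lower and 13.2% higher. Of the marker lists, 4 of 9 general neuronal, 5 of 6 dopaminergic and 1 of 5 GABA and glutamate genes were then lower. The block also left 2 of 6 microglia, 1 of 8 pituitary and hypothalamus and 1 of 3 neural crest and ganglion genes lower. The counts for the other marker lists did not change. The part of these shifts in the fall of the peptide genes was not tested. The culture arrays also fell into separate sets: Pearson's r across probe sets was 0.997 to 0.998 within arrays 1 to 3 and within arrays 4 to 6, and 0.982 to 0.987 between them. No label tells the sets apart, so each result is also given for either set.

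Sequence around the annotated start of the members is shown because several of them are textbook targets of the cAMP response element, the site bound by CREB. The RefSeq promoter table (GRCr8, 300 bases per gene, from 250 before the annotated start to 50 after it) held 7 of the 9 measured members, all but Cck and Penk. The full element, TGACGTCA, which reads the same on both strands, was found in 2 of the 7, Sst and Cartpt, and in 1.83% of all 33469 promoters in the table. In Sst it lay at bases 3 to 10 after the annotated start and in Cartpt it began 142 bases before it. Its core TGACG, searched on both strands and contained in every full element, was found in 5 of the 7 (Cartpt, Gal, Sst, Tac1 and Vip) and in 21.2% of all promoters. In Vip the core began 97 bases before the start, in Gal 63 and in Tac1 206, which is outside the stretch shown. The stretches below run 5′ to 3′ from 150 bases before the annotated start to 20 after it, with every full element or core in capitals. They are those of the 3 members with the largest falls, of both further members that hold the element or its core and fell, and of Gal, which did not pass.
Sst, chr11:90461396-90461565, plus strand: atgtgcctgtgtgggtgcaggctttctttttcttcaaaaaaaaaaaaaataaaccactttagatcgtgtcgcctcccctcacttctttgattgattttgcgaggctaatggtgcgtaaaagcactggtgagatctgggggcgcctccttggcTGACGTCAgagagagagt
Tac1, chr4:36645433-36645602, plus strand: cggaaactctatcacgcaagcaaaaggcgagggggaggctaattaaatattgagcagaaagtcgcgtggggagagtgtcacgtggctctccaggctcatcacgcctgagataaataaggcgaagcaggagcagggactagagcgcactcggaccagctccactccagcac
Npy, chr4:80211961-80212130, plus strand: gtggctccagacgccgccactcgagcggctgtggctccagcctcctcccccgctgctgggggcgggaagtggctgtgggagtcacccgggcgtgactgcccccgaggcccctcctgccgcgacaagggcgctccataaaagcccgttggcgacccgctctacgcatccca
Cartpt, chr2:32991216-32991385, minus strand: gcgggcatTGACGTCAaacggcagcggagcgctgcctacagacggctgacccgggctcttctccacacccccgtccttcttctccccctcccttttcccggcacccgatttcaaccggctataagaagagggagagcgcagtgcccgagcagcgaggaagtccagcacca
Vip, chr1:44470330-44470499, plus strand: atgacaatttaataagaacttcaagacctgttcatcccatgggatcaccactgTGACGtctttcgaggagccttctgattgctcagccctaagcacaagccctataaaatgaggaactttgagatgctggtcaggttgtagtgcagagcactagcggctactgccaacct
Gal, chr1:210084553-210084722, minus strand: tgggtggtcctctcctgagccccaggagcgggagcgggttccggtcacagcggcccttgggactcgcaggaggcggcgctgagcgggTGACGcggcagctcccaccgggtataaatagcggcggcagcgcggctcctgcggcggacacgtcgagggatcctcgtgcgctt
Gal holds the core, and Npy holds neither form in its 300 bases. Whether the element had a part in any difference between culture and tissue was not tested.

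**Figure D1:**
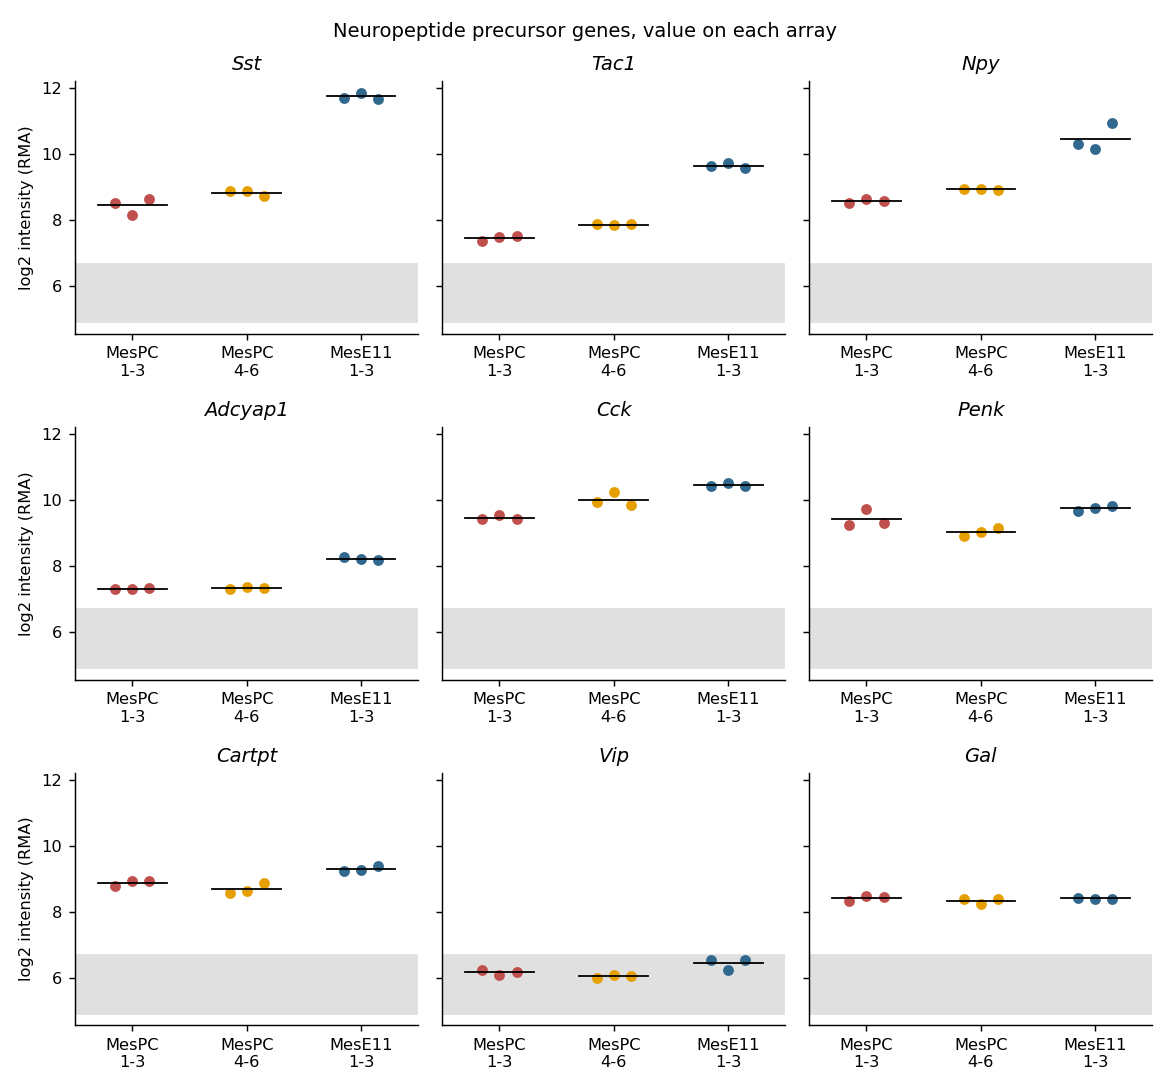
Log2 intensity of each measured neuropeptide precursor on every array, for culture arrays 1 to 3, culture arrays 4 to 6 and the 3 tissue arrays; points are arrays, lines are means and the grey band is the 4.90 to 6.68 read by bacterial control probe sets. Sst, Tac1 and Npy sit far below tissue in both culture sets, Gal overlaps between the groups and Vip lies inside the grey band.

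Sst and Npy encode peptides best known from inhibitory neurons: somatostatin inhibits hormone and transmitter release, and neuropeptide Y acts through receptors that lower cAMP and is also made by sympathetic neurons. Sst read 8.53, 8.16 and 8.65 in culture arrays 1 to 3 and 8.88, 8.88 and 8.72 in culture arrays 4 to 6, against 11.71, 11.87 and 11.67 in tissue. All 6 culture values lay at least 2 log2 units under the tissue values, and the spread within either group was small beside that gap. The difference was -3.11 ± 0.15 (limma adjusted p = 3.1e-07), the 8th largest fall among the 10411 genes. Even so, the culture mean of 8.64 stayed 1.95 above the highest bacterial control, so Sst message was still read above that background in culture.

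Npy read 8.51, 8.64 and 8.59 in culture arrays 1 to 3 and 8.95, 8.95 and 8.92 in arrays 4 to 6, against 10.30, 10.17 and 10.94 in tissue. The groups did not overlap, and the tissue arrays were less alike than for the other members, with MesE11 replicate 3 the highest. The difference was -1.71 ± 0.17 (limma adjusted p = 4.4e-05), and -1.48 without that array. Prph, the peripheral neuron filament peripherin, was likewise highest in MesE11 replicate 3, at 8.79 against 8.23 and 8.07 in replicates 1 and 2, and fell by 1.58 in culture. Prph was picked for this after its values were seen, and its part in the Npy values was not tested.

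Tac1 and Cck encode peptides that excite their target neurons. Tac1 gives substance P and neurokinin A, and Cck gives cholecystokinin, which many midbrain dopaminergic neurons of the rat hold beside dopamine. Tac1 read 7.36, 7.48 and 7.52 in culture arrays 1 to 3 and 7.88, 7.84 and 7.88 in arrays 4 to 6, against 9.64, 9.74 and 9.57 in tissue. It differed by -1.99 ± 0.13 (limma adjusted p = 2.2e-06), and its culture mean lay 0.98 above the highest bacterial control.

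Cck read 9.41, 9.53 and 9.42 in culture arrays 1 to 3 and 9.93, 10.24 and 9.85 in arrays 4 to 6, against 10.43, 10.53 and 10.41 in tissue. The fall was smaller than that of Tac1, at -0.73 ± 0.17 (limma adjusted p = 0.0082), and array 5 of the cultures came nearest to tissue. The dopaminergic markers differed by -3.08 ± 0.14 for Th to -0.43 ± 0.05 for Pitx3. Between them lay Ddc (-1.93 ± 0.44), Nr4a2 (-1.53 ± 0.25), Slc18a2 (-0.84 ± 0.11) and Slc6a3 (-0.77 ± 0.24). Further probe sets of these gave -0.21 ± 0.10 for Ddc, -1.02 ± 0.12 for Nr4a2, -1.56 ± 0.19 for Slc18a2 and -0.25 ± 0.09 for Slc6a3.

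Adcyap1 and Vip belong to the secretin family. Adcyap1 encodes PACAP, which acts on progenitors and neurons through a cAMP-raising receptor, and Vip encodes vasoactive intestinal peptide. Adcyap1 was the most even member in culture, at 7.30, 7.30 and 7.32 in arrays 1 to 3 and 7.31, 7.35 and 7.34 in arrays 4 to 6, against 8.26, 8.20 and 8.17 in tissue. It differed by -0.89 ± 0.04 (limma adjusted p = 5.2e-07). Its culture mean, 7.32, was 0.64 above the highest bacterial control, the nearest to background of the members outside that range.

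Vip read 6.22, 6.07 and 6.18 in culture arrays 1 to 3 and 5.98, 6.08 and 6.06 in arrays 4 to 6, against 6.55, 6.23 and 6.53 in tissue. Both group means, 6.10 and 6.43, were no higher than the brightest bacterial control, so these values do not show that Vip was expressed in either group. The difference was -0.33 ± 0.08 (limma adjusted p = 0.00994), and 19.7% of the 1201 genes with both means in that range were called lower. Over all probe sets, the lower quartile of an array was 6.98 to 7.11 in culture arrays and 7.15 to 7.21 in tissue arrays, and the part of this in the Vip value was not tested.

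Penk and Cartpt encode proenkephalin, the source of the enkephalin opioids, and the precursor of the CART peptides, which act on feeding and reward. Penk read 9.24, 9.73 and 9.31 in culture arrays 1 to 3 and 8.91, 9.03 and 9.15 in arrays 4 to 6, against 9.68, 9.76 and 9.82 in tissue. Culture array 2 lay within the tissue range, the other culture arrays below it. The difference was -0.52 ± 0.15 (limma adjusted p = 0.0198), and the call ended without MesE11 replicate 2 (limma adjusted p = 0.0576) or 3 (0.0777), at -0.52 and -0.49.

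Cartpt read 8.77, 8.93 and 8.93 in culture arrays 1 to 3 and 8.58, 8.63 and 8.86 in arrays 4 to 6, against 9.23, 9.26 and 9.40 in tissue. The groups did not overlap, and the difference was -0.51 ± 0.09 (limma adjusted p = 0.00181). Gal, whose peptide galanin modulates monoamine neurons, read 8.34, 8.48 and 8.46 in culture arrays 1 to 3 and 8.39, 8.24 and 8.39 in arrays 4 to 6, against 8.43, 8.39 and 8.39 in tissue. The Gal groups overlapped, and the difference of -0.02 ± 0.06 (limma adjusted p = 0.786) had a 95% interval from -0.16 to 0.11.

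**Figure D2:**
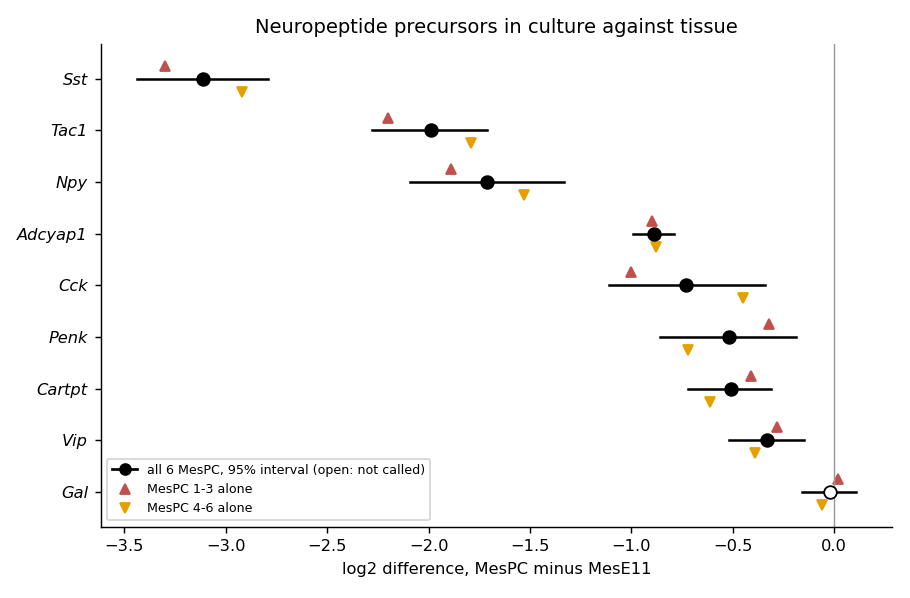
Log2 difference of each member, MesPC minus MesE11, with its 95% interval from limma (black; open where the call was missed), and the difference with culture arrays 1 to 3 alone (red) or 4 to 6 alone (orange). Sst, Tac1 and Npy lie at -3.11, -1.99 and -1.71, the others between -0.89 and -0.02.

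The 6 members that fell with the random block, as 9.11% of all genes did, were Sst, Tac1, Npy, Adcyap1, Cck and Cartpt, with limma adjusted p from 2.2e-06 to 0.0271. The 6 culture values all lay below the 3 tissue values for 7 of the 9 members, where this held for 23.3% of genes.

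The culture sets differed in some of the peptide genes, in opposite directions. Between culture arrays 1 to 3 and 4 to 6, 3 of the 9 members were lower in arrays 1 to 3 and 1 was higher, where 17.5% and 15.2% of all genes were. The share of members called, 4 of 9, is not far from the 32.7% of all genes, so a difference between the sets is not particular to these genes. These p-values come from a fit with the sets as separate levels. The sets were known from these same arrays, so the p-values describe the spread between arrays and are not a test of a planned contrast.

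Cck, Tac1 and Sst were the members lower in culture arrays 1 to 3. Arrays 1 to 3 minus arrays 4 to 6 gave -0.56 ± 0.09 for Cck (limma adjusted p = 4.2e-04), -0.41 ± 0.07 for Tac1 (4.3e-04) and -0.38 ± 0.11 for Sst (0.0166). The Sst call ended without MesPC replicate 2 (limma adjusted p = 0.0692), 4 (0.0661) or 5 (0.0628), and the difference was -0.24 without replicate 2. Penk went the other way, at 0.40 ± 0.11 (limma adjusted p = 0.0139), and lost its call without MesPC replicate 2 (0.25, limma adjusted p = 0.0514) or 4 (0.34, limma adjusted p = 0.0694). For Npy the sets did not overlap, but the difference of -0.36 ± 0.14 missed the threshold (limma adjusted p = 0.0755). Cartpt, at 0.19 ± 0.08, passed without MesPC replicate 6 (0.28, limma adjusted p = 0.0195) and not with all arrays (limma adjusted p = 0.101). Vip (0.12 ± 0.08), Gal (0.08 ± 0.07) and Adcyap1 (-0.03 ± 0.06) were not called. The values of the sets did not overlap for 5 of the 9 members, against 48.4% of all genes.

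Set against tissue one set at a time, the members fell in either set. With culture arrays 1 to 3 alone 8 of 9 fell, and with arrays 4 to 6 alone 8 of 9, where 27% and 27.2% of all genes did. None rose in either, where 25.7% and 22.9% of all genes did. These comparisons share the tissue arrays. Sst differed by -3.30 ± 0.12 with arrays 1 to 3 alone and by -2.92 ± 0.08 with arrays 4 to 6 alone. For Tac1 the values were -2.20 and -1.79, for Npy -1.89 and -1.53, for Adcyap1 -0.90 and -0.88. Cck moved most between the sets, at -1.0 and -0.45, and Penk, at -0.32 and -0.72, ran the other way.

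General neuronal genes also differed between the sets. All 9 measured were lower in culture arrays 1 to 3 than in arrays 4 to 6, where 17.5% of all genes were. The median between the sets was -1.17, against -0.03 for the peptide genes and 0.03 over all genes. Stmn2, a microtubule regulator of growing axons, differed from tissue by -1.86 with arrays 1 to 3 alone and by -0.46 with arrays 4 to 6 alone. Tubb3, the neuronal tubulin, gave -1.41 and -0.24. With those arrays 4 to 6, Sst, Tac1 and Npy, the members with the largest falls, gave -2.92, -1.79 and -1.53. The other members gave -0.88 (Adcyap1) to -0.06 (Gal). General neuronal genes then ran from -1.60 (Nefm) to -0.04 (Map2), so the lists overlapped. Their median against tissue was -0.44 with arrays 4 to 6 alone, and -0.72 for the peptide genes. With arrays 1 to 3 alone these medians were -1.41 and -0.90. Within the dopaminergic markers Th, at -3.29 and -2.86, ran like Sst, whereas Ddc, at -2.72 and -1.15, depended on the set. The difference between these lists was not tested.

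**Figure D3:**
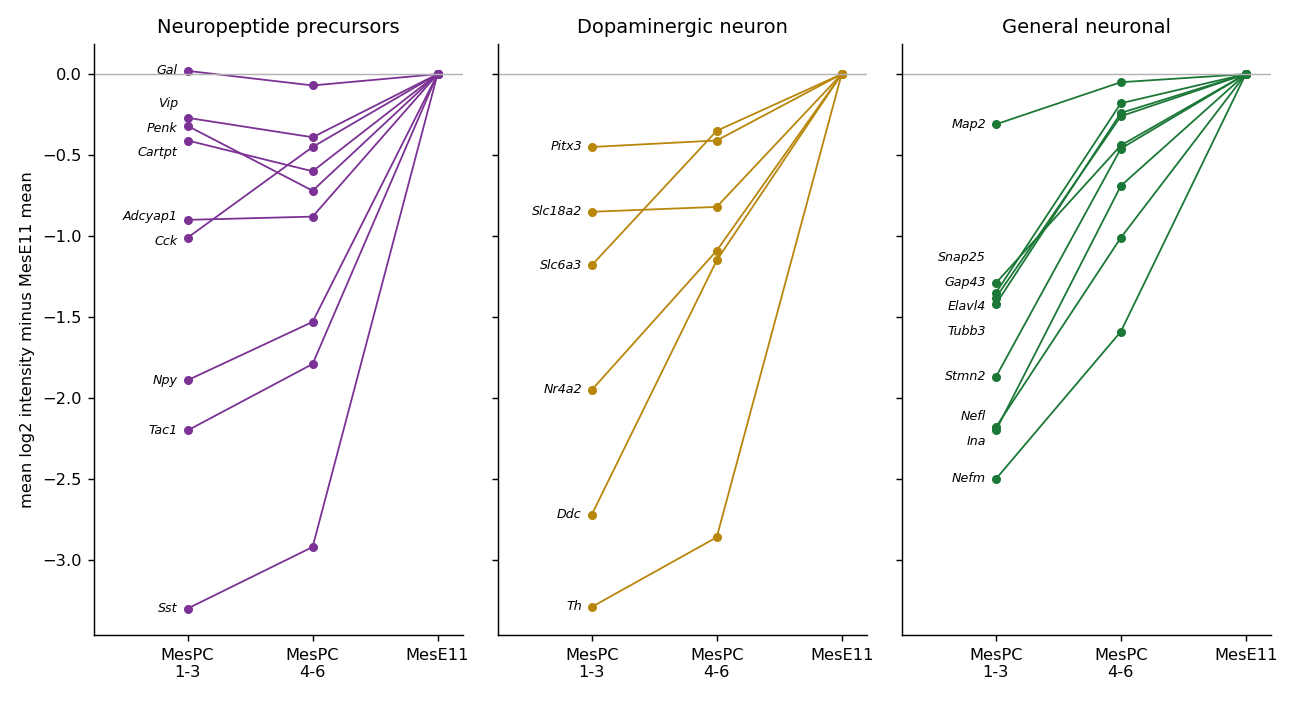
Mean log2 intensity relative to the tissue mean for culture arrays 1 to 3, culture arrays 4 to 6 and tissue (0 by construction), with 1 line per gene, for the neuropeptide precursors, dopaminergic markers and general neuronal genes. Sst and Th stay near -3 in both culture sets. In arrays 4 to 6 Stmn2 and Tubb3 lie at -0.46 and -0.24, and Nefm at -1.60.

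Likeness of pattern was measured over the 9 arrays as the root mean square difference between profiles centred on their own mean, for the 4 members whose values spanned at least 1 log2 unit. The profile nearest to that of Sst was Th, tyrosine hydroxylase of dopamine synthesis, at 0.145 log2 units, followed by Sncg, gamma synuclein (0.253), and the transcription factor gene Onecut1 (0.305). Tac1 was most like Cbln2, a synapse organizer (0.122), Pnoc, the nociceptin precursor (0.164), and B3gat2 (0.173). Npy was most like the calcitonin receptor gene Calcr (0.154), Tcf7l2, a Wnt pathway transcription factor (0.185), and Hspa12a (0.189). Cck was most like Smarcd3 (0.0914), Gga3 (0.0948) and Clasp2 (0.0995), whose differences from tissue were -0.67, -0.64 and -0.63. Among the members, Tac1 and Npy differed by 0.269 and Sst and Tac1 by 0.546. These values share the same 9 arrays and are a description. The measure depends largely on the size of the difference between culture and tissue, which was -3.11 for Sst, -3.08 for Th and -3.11 for Sncg. A small distance therefore does not show that 2 genes are expressed in the same cells.

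Other neuropeptide precursor genes had a smaller median difference. Of 38 measured from a list of 49, 12 fell and 1 rose, where 22.7% and 21.9% of all genes did, and the median difference was -0.16. With the random block 2 fell and 1 rose, where 9.11% and 13.2% of all genes did. Without the block, the share that fell is thus close to that of all genes. Of the 12 that fell without it, 5 had a culture mean at or below the highest bacterial control. Pnoc, whose peptide nociceptin is an opioid-related transmitter, stood out by size, with a culture mean of 7.13 and a tissue mean of 9.29, a difference of -2.16 ± 0.13 (limma adjusted p = 1.6e-06). Nucb2, the nesfatin precursor, was the one that rose, by 0.56 ± 0.09. The next falls were those of Grp, the gastrin-releasing peptide precursor (-0.49 ± 0.09, to a culture mean of 6.66 at background), Oxt, of oxytocin (-0.40 ± 0.10), Gast, of gastrin (-0.38 ± 0.09), and Gip (-0.37 ± 0.11). With the random block Pnoc, Grp and Nucb2 passed, and Oxt (limma adjusted p = 0.0731), Gast (0.1) and Gip (0.154) did not.

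Receptors for the peptides went both ways. Of 23 measured, 12 fell and 3 rose, where 22.7% and 21.9% of all genes did, with a median of -0.24, while the random block left 2 lower and 2 higher, where 9.11% and 13.2% of all genes were. Of the 12, 5 had both means at or below the highest bacterial control. Adcyap1r1, the PACAP receptor PAC1, rose by 1.05 ± 0.09 (limma adjusted p = 1.5e-05), with 12.07 to 12.34 in culture and 10.92 to 11.28 in tissue, so ligand gene and receptor gene moved in opposite directions. Of its further probe sets 1 rose by 0.72 ± 0.20 and the others, at 0.34 ± 0.21 and -0.01 ± 0.10, did not pass. Ntsr2, a neurotensin receptor found on astrocytes, rose by 0.56 ± 0.08, while Vipr2, which binds VIP and PACAP alike, did not pass (0.05 ± 0.07), and Vipr1 (-0.36 ± 0.08) lay in the background range in both groups.

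Of the somatostatin receptors 3 of 5 fell, where 22.7% of all genes did. With the random block Sstr1 and Sstr2 did, and Sstr5 did not pass (limma adjusted p = 0.181). Sstr1 changed by -1.04 ± 0.20 (limma adjusted p = 0.00252; further probe sets -0.23 ± 0.07 and -0.39 ± 0.07), Sstr2 by -0.35 ± 0.06 (a further one -0.75 ± 0.13) and Sstr5 by -0.29 ± 0.10. Sstr3 (-0.14 ± 0.05) and Sstr4 (-0.18 ± 0.10) did not pass. Sstr1 gave -1.37 with culture arrays 1 to 3 alone and -0.71 with arrays 4 to 6 alone. Tacr1, the substance P receptor, changed by -0.33 ± 0.07, and Cckbr, a cholecystokinin receptor, by -0.42 ± 0.12 with overlapping groups. Neither Tacr1 (limma adjusted p = 0.0674) nor Cckbr (0.104) passed with the random block. Tacr2, Tacr3, Npy2r and Npy5r had both means in the background range, and of the other opioid and neuropeptide Y receptors Npy4r changed by -0.33 ± 0.07, Oprd1 by -0.24 ± 0.07 and Oprm1 by -0.24 ± 0.15, which did not pass. Npy4r (limma adjusted p = 0.0855) and Oprd1 (0.114) lost their calls with the random block.

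Genes for cutting and storing the precursors went both ways. Of 13 processing and granule genes measured, 2 rose and 2 fell, close to the 21.9% and 22.7% of all genes. With the random block 1 rose and 2 fell, where 13.2% and 9.11% of all genes did. With culture arrays 1 to 3 alone 2 rose and 7 fell, where 25.7% and 27% of all genes did. With arrays 4 to 6 alone 4 rose and 5 fell, where 22.9% and 27.2% of all genes did. The median was -0.30, but -0.68 with culture arrays 1 to 3 alone and 0.02 with arrays 4 to 6 alone. Pam, the enzyme that amidates peptides such as those of Npy, Cck and Tac1, rose by 0.83 ± 0.06 (further probe sets 0.01 ± 0.07 and -0.09 ± 0.05, both in the background range), and Furin, a convertase of the secretory pathway, by 0.40 ± 0.08. The Furin call was lost with the random block (limma adjusted p = 0.0529). Scg5, a chaperone of a prohormone convertase, changed by -1.92 ± 0.38 and Pcsk1n, a convertase inhibitor, by -0.94 ± 0.26. Scg5 gave -2.57 with culture arrays 1 to 3 alone and -1.26 with arrays 4 to 6 alone.

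**Figure D4:**
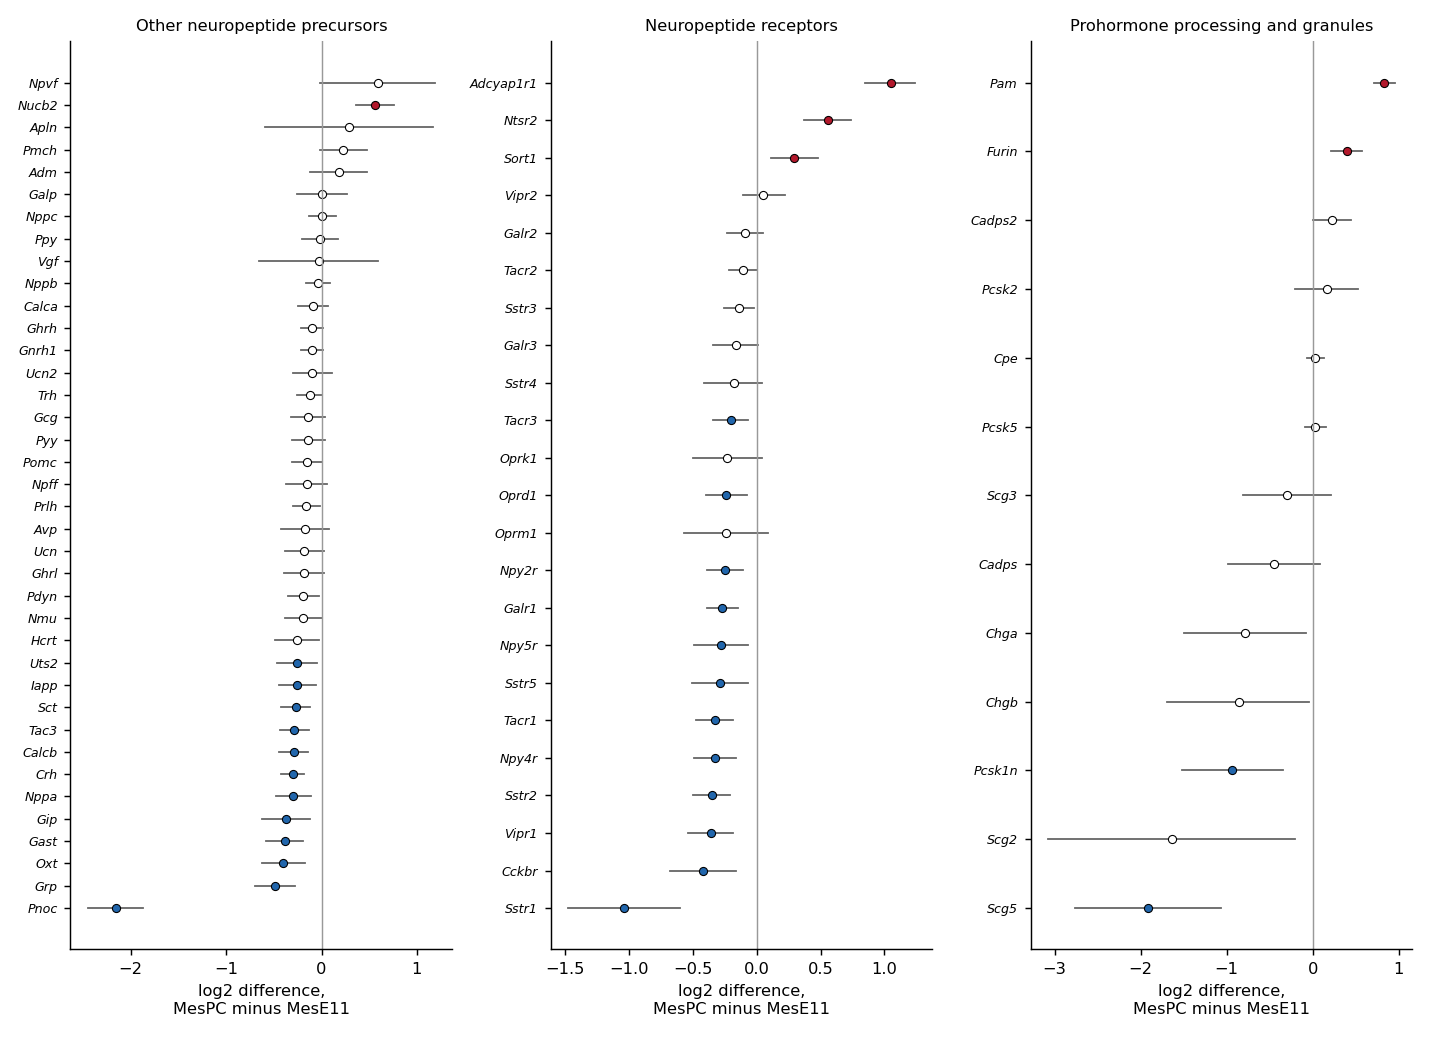
Log2 difference, MesPC minus MesE11, with its 95% interval for the other neuropeptide precursors, the receptors and the processing and granule genes; filled points passed limma's test (red higher, blue lower) and open points did not. Pnoc (-2.16), Sstr1 (-1.04) and Scg5 (-1.92) are the lowest of their lists and Adcyap1r1 (1.05) is the highest receptor.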

How the data were processed

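Expression was measured on 9 Affymetrix rat arrays, 6 MesPC and 3 MesE11, grouped by their titles. Total RNA came from a Tri-Reagent extraction and carried a biotin label, per the labels. The deposited values are log2 intensities that the authors made with RMA, per the submitters' processing notes, with no version stated. The method subtracts background, equalizes the arrays and combines probes, so a difference is relative to the rest of the array. They ran from 4.69 to 14.8, with array medians of 8.61 to 8.67. The number of arrays limits the precision.

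Of 15923 probe sets, 57 controls were left out and 15866 tested. The array annotation gave 12783 of them 1 symbol, for 10411 genes, with the brightest by mean over the 9 arrays used per gene. Entrez numbers of 12748 were found in RefSeq (GRCr8), and 0 symbols changed. limma 3.58.1 in R 4.3.3 (lmFit, eBayes, two-sided, Benjamini-Hochberg over all tested) compared MesPC with MesE11, and in a fit with 3 levels MesPC 1 to 3 with MesPC 4 to 6. The random block used duplicateCorrelation (correlation 0.45). Background was the highest value, 6.68, of 15 probe sets for bacterial genes, as a guide. Checks ran on simulated arrays. Figures used matplotlib 3.10.9.

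The members, lists and tests were chosen with earlier results of these data known. Named by rule were the 10 members, up to 6 genes per list with the largest called differences and no overlap of groups, receptors of members that passed, and the 3 genes most like a member. Markers and genes said to be picked are named besides. Same-numbered tissue and culture arrays did not deviate together (correlations 0.017, 0.0072 and -0.086), so numbers were not taken as pairs. Alternatives were another normalization, centring, a filter, other priors, sets alone, blocks and leaving out arrays.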

Additional observations from a re-analysis of the deposited data

Results flagged for a closer look

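Among the members and the other genes named by rule, 1 gene had a culture array set apart from the rest of its group: Npy5r, a neuropeptide Y receptor, read 5.41 in MesPC replicate 4, against 5.62 in the nearest of the other culture arrays. Chance gives about 1 such case in 20 groups. Both group means of Npy5r lay in the background range.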

How the results depend on the processing

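In all alternatives run, Sst, Tac1, Npy, Adcyap1, Cck and Cartpt kept their fall from tissue and their call, over -3.30 to -2.92, -2.20 to -1.79, -1.89 to -1.48, -0.93 to -0.86, -1.0 to -0.45 and -0.61 to -0.41. Without the dimmest 40% of probe sets Vip and Adcyap1 were left out. Vip also lost its call without MesE11 replicate 1 or 3 (adjusted p = 0.0514 each). Gal turned sign at 0.02 with MesPC 1-3 alone, 0.02 with the replicate block and 0.01 without MesPC replicate 5 (-0.04 to 0.01 over arrays left out), passing in none. Leaving out 1 array gave 6 to 8 members lower and 0 higher in culture, and between culture sets 2 to 3 lower and 0 to 2 higher. With all arrays, 22.7% of all genes were lower and 21.9% higher in culture, and 17.5% lower and 15.2% higher between the sets. Npy differed between sets with the 6 MesPC arrays alone (adjusted p = 1.0e-03) and without the dimmest 40% (0.0467). The replicate block (MesPC 1 to 3 with MesE11 1 to 3) called 3604 probe sets higher and 3917 lower, against 3730 and 4149 for the same arrays without it, and 8 members lower in both; other precursors higher were 4 and processing genes lower 7 in both. With MesPC 4-6 alone, 3 other precursors were higher and 20 lower, and 4 processing genes higher and 5 lower. The random block called 1879 probe sets higher and 1348 lower, against 3128 and 3565 without it, and 2 other precursors, 2 receptors lower and 1 processing gene higher. Without the dimmest 40%, 1936 probe sets, 2 other precursors and 4 receptors were lower; fewer were tested. Leaving out 1 array gave 2484 to 3171 probe sets higher and 2241 to 3458 lower (2241 without MesE11 replicate 3), 7 to 13 other precursors lower, 8 to 13 receptors lower and 1 to 4 processing genes lower (1 without MesE11 replicate 2 or 3). Other causes were not tested.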

Other observations

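The 7 genes of the precursor, receptor and processing lists with the largest differences between the culture sets are given here as values, chosen with those values known. Scg2, secretogranin II of dense core granules, read 7.08 to 7.36 in culture arrays 1 to 3, 9.47 to 9.62 in arrays 4 to 6 and 9.92 to 10.21 in tissue. Arrays 1 to 3 minus arrays 4 to 6 gave -2.33 ± 0.09 for Scg2, -1.32 ± 0.12 for Scg5, -1.28 ± 0.13 for Chgb and -1.13 ± 0.08 for Chga, the chromogranins. Vgf, a granule protein and peptide precursor, gave -0.95 ± 0.10. Apln, the apelin precursor, went the other way at 1.41 ± 0.08 (9.06 to 9.35 in arrays 1 to 3, 7.73 to 7.82 in arrays 4 to 6 and 8.07 to 8.26 in tissue), as did Npvf at 0.95 ± 0.09. A further Apln probe set differed from tissue by -0.06 ± 0.19. Against tissue with all 6 culture arrays Scg5 passed limma's test (-1.92 ± 0.38, adjusted p = 0.00306) and the other 6 did not. Scg2, Chgb and Chga still had all culture values below tissue, and each passed as lower with either set alone. Scg2 gave -2.81 with arrays 1 to 3 alone and -0.48 with arrays 4 to 6 alone. Chgb gave -1.50 and -0.22, and Chga -1.36 and -0.22. Vgf passed as lower with arrays 1 to 3 alone and as higher with arrays 4 to 6 alone, and Apln the reverse. Npvf passed only with arrays 1 to 3 alone, as higher.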
